A study of Rattus norvegicus with 6 samples.

Results

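The rat pancreas makes a small set of enzymes and cofactors for digesting fat, and their transcripts were followed here through a crushing injury and through treatment of the injured animals with exosomes. The set holds 7 genes, taken by symbol from the table of 34001 genes: pancreatic lipase (Pnlip), its relatives Pnliprp1 and Pnliprp2, carboxyl ester lipase (Cel), colipase (Clps), colipase-like 2 (Clpsl2) and pancreatic phospholipase A2 (Pla2g1b). All 7 were found and all 7 passed the filter on low values. Their levels were read as TPM (an abundance scaled for transcript length and to the same sum in every library), and also relative to Ctrb1, the gene of the digestive protease chymotrypsinogen B, which the same acinar cells make.

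The 6 libraries came from Sprague-Dawley rats in 3 groups of 2. In the group called TP+hucMSC-Exs, rats had traumatic pancreatitis and received exosomes from human umbilical cord mesenchymal stem cells through a tail vein, at 10 µg per 100 g. TP rats had the same injury, made by an impactor that struck and pressed the exposed pancreas over 3 cm2 with 10 kg, and were given 1 ml of saline. Control rats had their abdomen opened and the pancreas moved with swabs, and also got 1 ml of saline. Pancreas was collected 24 h after the operation in all groups, and the whole tissue was sequenced, so fewer acinar cells and less enzyme RNA per cell cannot be told apart. Neither the sex nor the age of the rats is given in the sources used here.

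As background, acinar cells store digestive enzymes in zymogen granules and release them into the duct. Pancreatic lipase splits triglycerides but is displaced from fat droplets by bile salts, and colipase, which trypsin activates, anchors it there. Carboxyl ester lipase needs bile salts and cleaves cholesteryl and other esters, and Pla2g1b is released as a proenzyme that trypsin activates to cut phospholipids. Pnliprp1 resembles Pnlip but has little lipase activity, whereas Pnliprp2 also acts on galactolipids and phospholipids. In pancreatitis, lipase and phospholipase that leave the acinar cell can digest fat tissue and membranes, and lipase in blood is a clinical marker of the disease.

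In the RefSeq table of the rat genome (build GRCr8), Pnlip, Pnliprp1 and Pnliprp2 are consecutive entries, as are Clpsl2 and Clps. Promoter windows of 300 bases, from 250 before to 50 after the annotated start, from RefSeq were used for 5 of the 7 members; those of Clps and Clpsl2 were not analysed here. The windows shown are those of the neighbours Pnlip and Pnliprp1, whose transcripts compared differently between the groups, that of Cel, and that of Ctrb1, the comparison gene. Pnlip lies at chr1:267784360-267784659 (plus strand), Pnliprp1 at chr1:267853777-267854076 (plus strand), Cel at chr3:32288970-32289269 (minus strand) and Ctrb1 at chr19:56566929-56567228 (minus strand). Each is written 5′ to 3′ along its gene, and capitals mark, on either strand, several motifs. CACCTG is an E-box of the site of PTF1, the acinar transcription factor complex, and the other part of that site is searched as TTCCCA. The remaining motifs are the TATA box, with TATAAA searched, a GATA factor motif, with GATAAG searched, and an NR5A2 motif, with CAAGGTCA searched.
Pnlip: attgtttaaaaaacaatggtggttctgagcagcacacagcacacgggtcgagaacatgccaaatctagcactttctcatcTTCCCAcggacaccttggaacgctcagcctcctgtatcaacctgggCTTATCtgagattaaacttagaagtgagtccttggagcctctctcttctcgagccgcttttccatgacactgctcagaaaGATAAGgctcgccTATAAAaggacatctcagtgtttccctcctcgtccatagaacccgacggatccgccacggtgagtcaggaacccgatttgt
Pnliprp1: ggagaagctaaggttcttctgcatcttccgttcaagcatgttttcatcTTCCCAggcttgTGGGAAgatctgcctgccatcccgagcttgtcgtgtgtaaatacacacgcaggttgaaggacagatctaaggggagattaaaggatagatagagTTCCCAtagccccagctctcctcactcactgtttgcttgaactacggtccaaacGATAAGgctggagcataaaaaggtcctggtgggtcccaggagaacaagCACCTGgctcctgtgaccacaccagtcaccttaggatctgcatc
Cel: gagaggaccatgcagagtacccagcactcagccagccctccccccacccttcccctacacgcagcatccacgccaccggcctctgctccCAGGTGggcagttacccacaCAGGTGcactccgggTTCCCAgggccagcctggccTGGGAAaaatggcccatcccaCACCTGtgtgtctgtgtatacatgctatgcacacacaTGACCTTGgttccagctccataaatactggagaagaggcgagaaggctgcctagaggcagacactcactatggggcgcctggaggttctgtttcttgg
Ctrb1: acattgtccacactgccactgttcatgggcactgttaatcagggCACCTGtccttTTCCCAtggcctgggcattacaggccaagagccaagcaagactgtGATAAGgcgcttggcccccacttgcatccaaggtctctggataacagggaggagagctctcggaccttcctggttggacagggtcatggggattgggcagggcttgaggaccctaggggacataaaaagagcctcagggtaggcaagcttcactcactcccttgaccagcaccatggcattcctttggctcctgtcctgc

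The neighbours Pnlip and Pnliprp1 shared some letters and not others. GATAAG began at position -44 from the start of Pnlip and at -42 from that of Pnliprp1, a motif found in 7.05% of all 33469 windows of this length. It also stood farther upstream in Ctrb1, at -150, and on the opposite strand in Pnlip, from -124, and in Pla2g1b, from -56. TATAAA stood at -31 in Pnlip and at -29 in Pla2g1b, and in 14.2% of all windows. TTCCCA occurred in the windows of Pnlip, Pnliprp1, Cel, Ctrb1 and, on the opposite strand only, Pla2g1b. Counting either strand, it was in 25.7% of all windows. CACCTG, found in 18.8% of all windows, occurred in Pnliprp1, Cel and Ctrb1. Each of those windows thus held both CACCTG and TTCCCA, at any spacing, as did 4.95% of all windows. In Ctrb1 they began at -206 and -195. In Cel, CACCTG began at -85 and, on the opposite strand, at -161 and -141. TTCCCA began there at -126 and, on the opposite strand, at -106. The 2 motifs lay far apart in Pnliprp1, with CACCTG at 7, after the start, and TTCCCA at -202, at -96 and, on the opposite strand, at -190. CAAGGTCA was present in Cel on the opposite strand, from -48, and in 1.52% of all windows. None of the motifs was in the window of Pnliprp2. Positions are those of a motif's first base along the gene, counted from the annotated start, and no matches overlapped in these windows. They are matches of letters only.

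The libraries carried the labelled tissue: the 7 acinar markers found of 8 listed were at 1 TPM or more in all 6. One library stood apart. In TP replicate 2 the acinar markers summed to 111705 TPM, against 358638 to 461754 TPM in the other 5 libraries. The 8 adipocyte markers summed to 6576 TPM there and to between 19.1 and 46.5 TPM elsewhere, where Plin1 and Lep, 2 defining ones, were at 0.53 TPM or below. The 6 macrophage and monocyte markers summed to 4330 TPM in it and to between 8.53 and 725 TPM in the others, and the 6 fibroblast and stellate markers to 4389 TPM against 30.5 to 150 TPM. Transcripts of the 13 mitochondrially encoded genes made up 4.58% of TPM in TP replicate 2 and between 0.582% and 0.928% in the other libraries. TPM keep no sequencing depth, so the depth behind the values is unknown. Pancreatic fat digestion was still a large part of every library: the 7 members took 9.18% and 7.92% of all TPM in the TP+hucMSC-Exs libraries, 12.5% and 3.44% in TP, and 12.9% and 12.8% in Control.

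Pancreatic lipase was the abundant member that differed most between exosome-treated and Control pancreas. Pnlip had 10359 and 7186 TPM in TP+hucMSC-Exs libraries, 17334 and 5101 TPM in TP libraries, and 21253 and 22320 TPM in Control libraries. Both injured groups lay wholly below Control, and the TP libraries lay on either side of the treated ones. The mean was 8772 ± 2243 TPM after exosomes and 21787 ± 754 TPM in Control (SD, n = 2 each), a ratio of 0.403. In limma on log2(TPM + 0.5), the estimate for TP+hucMSC-Exs against Control was -1.34 ± 0.65 (log2 fold change and SE), with an adjusted p of 0.800. For TP against Control it was -1.21 ± 0.65, with an adjusted p of 0.555.

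Colipase, the cofactor of Pnlip, had 27754 and 20377 TPM in TP+hucMSC-Exs libraries, 36347 and 9590 TPM in TP libraries, and 42620 and 39448 TPM in Control libraries. As for Pnlip, every library of an injured rat was below both Controls. The Clps estimate was -0.79 ± 0.56 for TP+hucMSC-Exs against Control and -1.14 ± 0.56 for TP against Control (limma, log2 scale), and neither passed, with adjusted p of 0.800 and 0.555. Its neighbour Clpsl2 was rare, at 5.61 and 5.87 TPM after exosomes, 2.82 and 0.9 TPM in TP, and 13.3 and 18.4 TPM in Control. The 3 groups of Clpsl2 did not overlap: TP was lowest, the treated libraries were intermediate and Control was highest. For TP against Control the Clpsl2 estimate of -2.90 ± 1.43 was at rank 4 from the lowest of the 11477 genes tested but had an adjusted p of 0.555.

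Carboxyl ester lipase had 10784 and 8686 TPM in TP+hucMSC-Exs libraries, 16567 and 5087 TPM in TP libraries, and 16279 and 16527 TPM in Control libraries. Cel in TP replicate 1 was as high as in Control, so TP and Control overlapped, whereas both treated libraries were lower than both Controls. The lipase-related genes were much closer to Control. Pnliprp1 had 7956 and 7091 TPM after exosomes, 12203 and 3370 TPM in TP, and 8397 and 8123 TPM in Control, with an estimate of -0.14 ± 0.71 for TP+hucMSC-Exs against Control (limma, log2 scale, adjusted p = 0.899). Pnliprp2 had 1762 and 1651 TPM after exosomes, 2343 and 653 TPM in TP, and 1872 and 1934 TPM in Control. For both genes TP replicate 1 was the highest of the 6 libraries and TP replicate 2 the lowest.

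The phospholipase Pla2g1b had 33209 and 34194 TPM in TP+hucMSC-Exs libraries, 39772 and 10572 TPM in TP libraries, and 38470 and 40099 TPM in Control libraries. The treated libraries were below Control by a ratio of means of 0.858, the TP libraries again on either side of them. Ctrb1, unlike the members, was not lower after exosomes than in Control, at 178569 and 170734 TPM after exosomes, 176265 and 43276 TPM in TP, and 172127 and 156284 TPM in Control. Its treated libraries were 1.06 times Control on average.

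**Figure D1:**
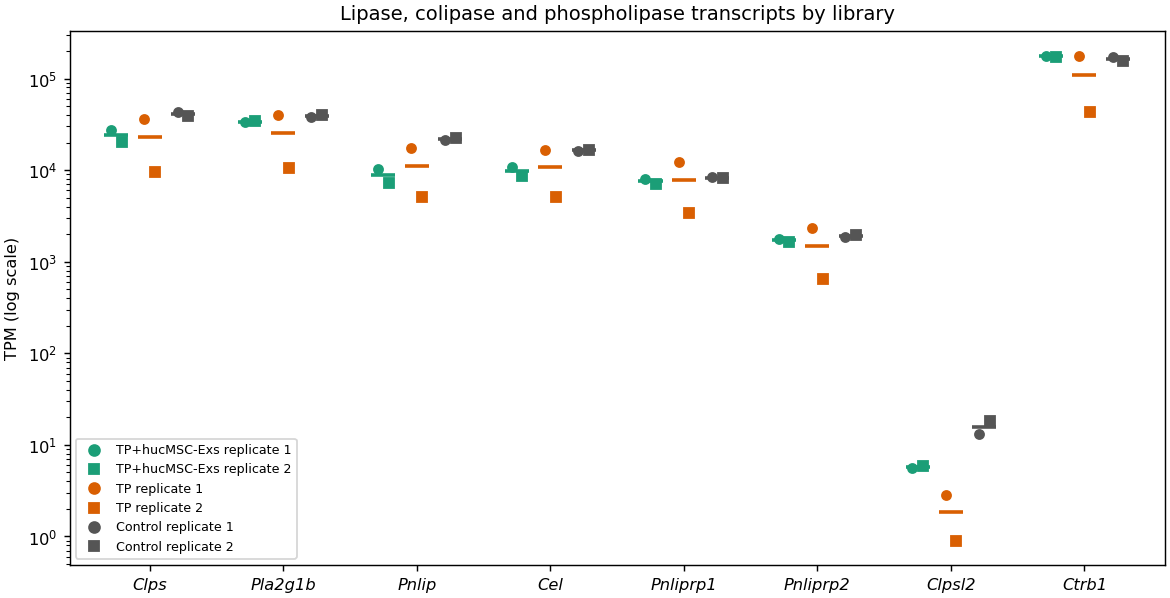
TPM on a log axis for the 7 members and Ctrb1 in each library, grouped as TP+hucMSC-Exs (green), TP (orange) and Control (grey), with circles for replicate 1, squares for replicate 2 and bars for the group mean. TP replicate 2 is the lowest library for all 8 genes, and the treated libraries sit below both Control libraries for each of the 7 members but not for Ctrb1.

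In the test across all genes with all 6 libraries, no member passed in any comparison of TPM. At an unadjusted p below 0.05 limma gave 1 member lower after exosomes than in Control (Pnlip), 0 between TP+hucMSC-Exs and TP, and 2 lower in TP than in Control (Clps and Clpsl2). At that unadjusted level 0.0958% of all genes were lower in TP+hucMSC-Exs than in Control, 1.32% passed in either direction between TP+hucMSC-Exs and TP, and 0.105% were lower in TP than in Control. The share of all genes called at an adjusted p below 0.05 was 0.209%, 0.0697% and 0.0523% in those comparisons, in that order. As to the libraries themselves, all 7 members were lower in both TP+hucMSC-Exs libraries than in either Control library, which held for 1.63% of all genes tested. The same was true of 11 of the 12 acinar proteases, Ctrb1 being the exception. Of the 7, Pnlip, Clps and Clpsl2 (3 members) were lower without overlap in TP than in Control, against 1.09% of all genes, and 1 member (Clpsl2) was higher without overlap in TP+hucMSC-Exs than in TP, against 5.09% of all genes. The median log2 change over the 7 members was -0.76 for exosome-treated against Control, 0.35 for treated against TP, and -0.94 for TP against Control, where the median of all genes tested was 1.09, -0.38 and 1.50. Most genes ran the other way from the members: 86.9% were higher without overlap in TP+hucMSC-Exs than in Control. TPM have the same sum in every library, so a smaller share for abundant genes leaves a larger share for the rest. The 12 acinar proteases took 49.1% and 45.4% of TPM in TP+hucMSC-Exs libraries and 61.9% and 58.9% in Control. How far this fixed sum sets the shares of all genes given here was not tested. The comparisons of the 3 groups share their libraries and are not independent of each other. With 2 rats a group, an exact two-sided permutation test of a single gene cannot give a p below 0.333.

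Whether a member passed in TPM turned on the TP libraries, whose spread enters the error of every comparison in the shared model. Without TP replicate 2, the estimates for TP+hucMSC-Exs against Control were as above with smaller errors, and Pnlip (-1.34 ± 0.24, limma adjusted p = 0.0205), Cel (-0.76 ± 0.20, adjusted p = 0.0341), Clps (-0.79 ± 0.24, adjusted p = 0.0436) and Clpsl2 (-1.37 ± 0.29, adjusted p = 0.0234) passed, as did 52.4% of all genes, 0.505% of all genes being lower. Pnliprp1, Pnliprp2 and Pla2g1b did not. The same 4 members passed without TP replicate 1, the other TP library, where 52.5% of all genes passed and 0.479% passed as lower. No member passed without any 1 of the Control or treated libraries. For TP against Control in TPM, no member passed without TP replicate 2, and all 7 passed as lower without TP replicate 1, where TP replicate 2 alone stood for the injury and was assumed to vary like the other groups. In that fit 93.3% of all genes passed for TP against Control and 1.78% passed as lower. It also called 6 members, all but Pnlip, higher in TP+hucMSC-Exs than in TP, against 3.62% of all genes.

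Markers of other cells also differed between the libraries. Beside the lower enzyme TPM after exosomes, the 6 duct markers summed to 140 and 214 TPM in TP+hucMSC-Exs libraries, 18.0 and 569 TPM in TP, and 9.70 and 10.2 TPM in Control. Macrophage and monocyte markers summed to 380 and 725 TPM after exosomes, 34.4 and 4330 TPM in TP, and 8.53 and 115 TPM in Control. Their part in the TPM differences was not tested. The members were also set against Ctrb1, a product of the same acinar cells.

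Relative to Ctrb1, the TP replicates came together, and the treated libraries stood below both other groups for the 6 abundant members. Pnlip had 58.0 and 42.1 TPM per 1000 TPM of Ctrb1 in TP+hucMSC-Exs libraries, 98.3 and 118 in TP libraries, and 123 and 143 in Control libraries. The groups did not overlap. The treated mean of 50.05 ± 11.3 was 0.376 of the Control mean of 133 ± 13.7 and 0.463 of the TP mean of 108 ± 13.8 (SD, n = 2 each). The limma estimate relative to Ctrb1 was -1.43 ± 0.36 for TP+hucMSC-Exs against Control, with an adjusted p of 0.118 over 11476 genes. Against TP the treated libraries gave -1.12 ± 0.36 (limma, adjusted p = 0.849), and TP against Control gave -0.30 ± 0.36 (adjusted p = 0.513).

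Colipase followed at a smaller size. Clps had 155 and 119 TPM per 1000 TPM of Ctrb1 after exosomes, 206 and 222 in TP, and 248 and 252 in Control, again without overlap between the 3 groups. Its estimate relative to Ctrb1 was -0.88 ± 0.25 for TP+hucMSC-Exs against Control (limma, adjusted p = 0.554) and -0.65 ± 0.25 for TP+hucMSC-Exs against TP (adjusted p = 0.849). Cel had 60.4 and 50.9 per 1000 of Ctrb1 in treated libraries, 94.0 and 118 in TP, and 94.6 and 106 in Control. TP and Control overlapped for Cel, and the treated libraries were at 0.555 of Control and 0.526 of TP. The Cel estimate was -0.85 ± 0.37 for TP+hucMSC-Exs against Control and did not pass (adjusted p = 0.974).

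The lipase-related genes showed the opposite order for injury alone. Pnliprp1 had 44.6 and 41.5 TPM per 1000 TPM of Ctrb1 after exosomes, 69.2 and 77.9 in TP, and 48.8 and 52.0 in Control. TP was thus the highest group, at 1.46 times Control, with an estimate of 0.54 ± 0.45 that did not pass (limma, adjusted p = 0.513). Pnliprp2 kept the same order with 9.87 and 9.67 per 1000 in treated libraries, 13.3 and 15.1 in TP, and 10.9 and 12.4 in Control. Pla2g1b had 186 and 200 per 1000 of Ctrb1 after exosomes, 226 and 244 in TP, and 223 and 257 in Control, so that TP and Control overlapped and the treated libraries were at 0.805 of Control. Clpsl2 was the only member higher after exosomes than in TP, with 0.0314 and 0.0344 per 1000 in TP+hucMSC-Exs, 0.0160 and 0.0208 in TP, and 0.0773 and 0.118 in Control.

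**Figure D2:**
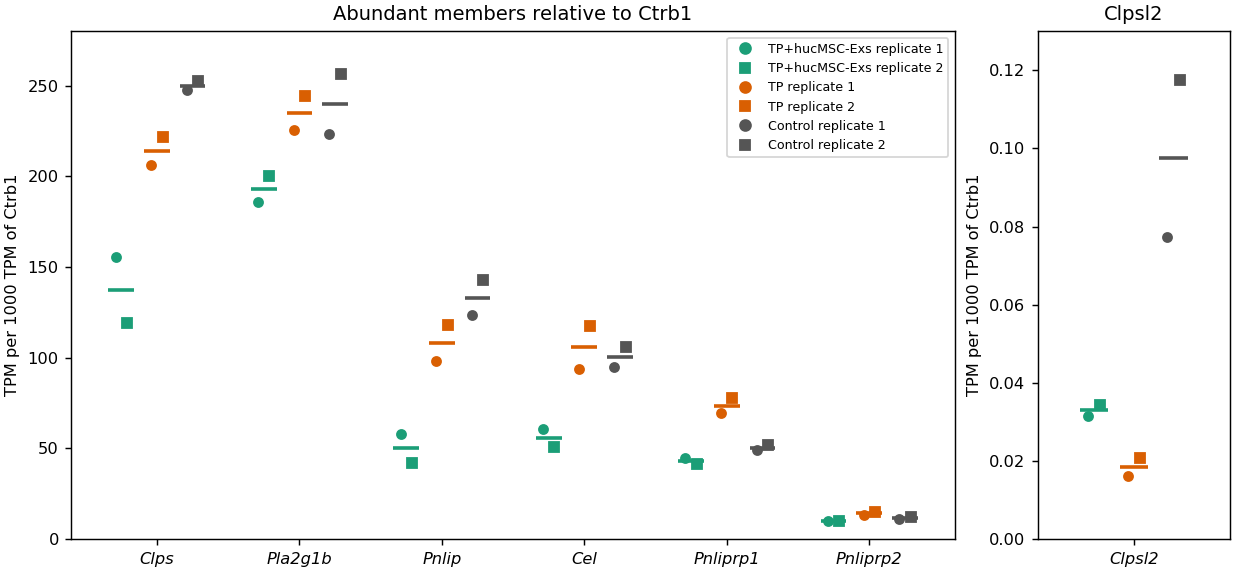
TPM per 1000 TPM of Ctrb1 for the 6 abundant members (left) and for Clpsl2 on its own axis (right), by library, with colours, symbols and mean bars for the groups and replicates as in the legend. The 2 TP libraries, apart in TPM, lie near each other here, and the treated libraries are below the TP and Control libraries for the 6 abundant members.

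With all 6 libraries no member passed relative to Ctrb1, where 0.0523%, 0.00871% and 0.0349% of all genes did for treated against Control, treated against TP and TP against Control. At an unadjusted p below 0.05, Pnlip, Cel and Clps (3 members) were lower in TP+hucMSC-Exs than in Control, the same 3 were lower than in TP, and 0 members passed at that level between TP and Control. Of all genes, 0.122% were lower than in Control at that level, 0.34% were lower than in TP, and 1.14% passed in either direction between TP and Control. All 7 members were lower without overlap in TP+hucMSC-Exs than in Control, as were 1.82% of all genes, and 6 members were lower than in TP, as were 2.52% of all genes. The other member, Clpsl2, was higher than in TP without overlap, as were 1.97%. For TP against Control, Pnliprp1 and Pnliprp2 were higher without overlap (2 members, against 16.1% of all genes) and Pnlip, Clps and Clpsl2 were lower (3 members, against 0.383%). The median over the members was -0.85 for treated against Control, -0.65 for treated against TP and -0.028 for TP against Control, beside 1.00, -1.37 and 2.40 over all genes.

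Relative to Ctrb1 the calls also turned on the TP libraries. Without TP replicate 2, the same 4 members passed for TP+hucMSC-Exs against Control: Pnlip with an adjusted p of 5.94e-08, Clps with 0.000743, Cel with 0.00246 and Clpsl2 with 0.0124 (limma), where 37.7% of all genes passed and 0.976% passed as lower. They passed also without TP replicate 1, where 0.95% of all genes were lower. In the fit without TP replicate 2, TP replicate 1 alone stood for the injury. In that fit Pnlip (-0.99 ± 0.29, adjusted p = 0.00706) and Cel (-0.76 ± 0.29, adjusted p = 0.0429) also passed as lower in TP+hucMSC-Exs than in TP, where 21.3% of all genes passed in either direction and 0.488% as lower. Without TP replicate 1, Pnlip, Cel, Clps and Pnliprp1 passed as lower in that comparison, as did 95.5% of all genes. For TP against Control, the fit without TP replicate 2 is given first. Clpsl2 was the member that passed for TP against Control (-2.39 ± 0.59, adjusted p = 0.00790), where 1.04% of all genes did and 0.575% were lower. Without TP replicate 1, Clpsl2 again passed as lower in TP than in Control, against 0.139% of all genes, and Pnliprp1 passed as higher (adjusted p = 0.0360), against 97.4%.

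**Figure D3:**
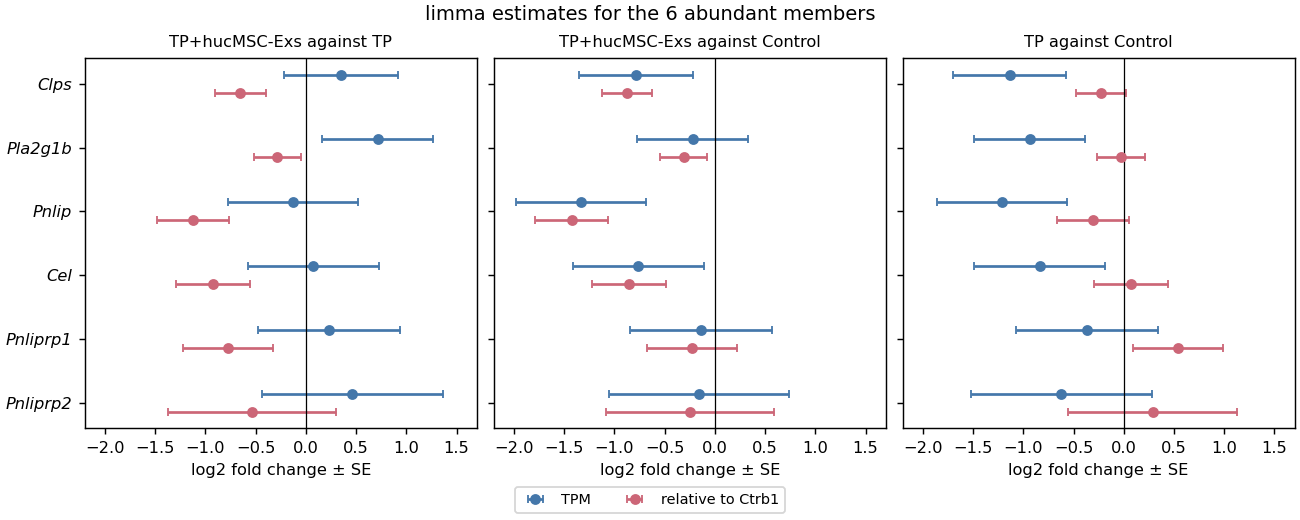
limma log2 fold changes with their standard errors for the 6 abundant members, in TPM (blue) and relative to Ctrb1 (red), one panel per comparison. For TP+hucMSC-Exs against TP the TPM estimates lie near 0 or above it and those relative to Ctrb1 all lie below 0; no estimate passed at an adjusted p below 0.05 with all 6 libraries.

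Ctrb1 did not run with the other acinar proteases between TP+hucMSC-Exs and Control. For TP against Control its log2 change in TPM was -0.91, close to the median of -0.99 over the 12 acinar proteases. All 11 of the other proteases were lower relative to Ctrb1 in both TP+hucMSC-Exs libraries than in either Control library. Prss1, a trypsinogen, fell relative to Ctrb1 in TP+hucMSC-Exs against Control (log2 change -0.59, limma adjusted p = 0.000829), with 856 and 818 TPM per 1000 of Ctrb1 after exosomes, 918 and 1023 in TP, and 1215 and 1299 in Control. Cela2a, a pancreatic elastase, had 145 and 131 per 1000 after exosomes, 207 and 230 in TP, and 244 and 247 in Control, close to the values of Clps. Prss3, another trypsinogen, fell relative to Ctrb1 in TP against Control (log2 change -1.79, limma adjusted p = 0.00703), with 75.8 and 66.0 per 1000 after exosomes, 40.8 and 52.1 in TP, and 157 and 162 in Control. Rat trypsinogens are closely related genes, so their values are uncertain where the authors' counting could split reads between them.

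Each member was therefore also divided by each of the 12 acinar proteases in turn. Pnlip was lower without overlap in TP+hucMSC-Exs than in Control against 12 of 12 proteases, with ratios of means from 0.376 against Ctrb1 to 0.873, which held for 0.41% of 11465 genes outside the protease list. Against TP, Pnlip was lower for 11 of 12 proteases, and TP was lower than Control for 8 of 12 and higher for 1, Prss3. Clps and Cel were lower in TP+hucMSC-Exs than in Control against 7 and 8 of the 12 and higher against 2, Prss3 and Cela1. The share of all genes reaching such counts, short of 12 of 12, was not computed, so how common they are is unknown. By contrast, Pnliprp1, Pnliprp2 and Pla2g1b were each higher in TP+hucMSC-Exs than in Control against 10 of the 12 proteases and lower against 1, Ctrb1. Higher against all 12, a stricter rule than 10 of the 12, were 83.6% of the genes outside the list. The direction of these 3 members relative to acinar proteases thus turned with the choice of Ctrb1, while that of Pnlip did not.

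For TP against Control, Pnliprp1 was higher without overlap against 12 of 12 proteases, with ratios of means from 1.26 to 5.07, as were 10.9% of the genes outside the list. Clpsl2 was lower against 12 of 12, with ratios of 0.163 to 0.651, as were 0.0349% of those genes, and it was higher in TP+hucMSC-Exs than in TP against 12 of 12, as were 1.26%. With the mean of the 12 proteases as the denominator, the limma estimate for TP+hucMSC-Exs against Control was -0.75 ± 0.27 for Pnlip, -0.20 for Clps, -0.17 for Cel, 0.45 for Pnliprp1, 0.43 for Pnliprp2 and 0.37 for Pla2g1b, each with an adjusted p of 0.734. As a sum, the members had 187 and 174 TPM per 1000 TPM of the 12 proteases after exosomes, 227 and 233 in TP, and 208 and 218 in Control.

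Within the fat-digesting set, Pnlip was lower relative to Pnliprp1 in each injured rat than in either Control rat. The ratio of Pnlip to Pnliprp1 was 1.30 and 1.013 in TP+hucMSC-Exs libraries, 1.42 and 1.51 in TP libraries, and 2.53 and 2.75 in Control. The TP pair lay close together even though Pnlip TPM in them were 17334 and 5101, and no injured library reached either Control. A fit with Pnliprp1 as the denominator was chosen after the data had been seen. There Pnlip was lower in TP+hucMSC-Exs than in Control by an estimate of -1.20 ± 0.28 (limma, adjusted p = 0.0291). That adjusted p does not allow for the choice of denominator, and the share of all genes passing with this denominator was not recorded. The TP against Control estimate for Pnlip in the same fit was -0.85 ± 0.28 (limma, adjusted p = 0.667).

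Other pairs gave other orders of the groups. Clps to Pnliprp1 was 3.49 and 2.87 after exosomes, 2.98 and 2.85 in TP, and 5.08 and 4.86 in Control, where the treated and TP libraries overlapped and both were below Control. Clps to Pnlip, the cofactor to its enzyme, was 2.68 and 2.84 after exosomes, 2.10 and 1.88 in TP, and 2.01 and 1.77 in Control, where TP and Control overlapped and the treated libraries were higher. Pnliprp1 to Pnliprp2 was 4.51 and 4.30 in treated libraries, 5.21 and 5.16 in TP, and 4.49 and 4.20 in Control. For that pair of relatives TP stood apart, and the treated and Control libraries overlapped. Pnlip to Cel was 0.961 and 0.827 after exosomes, 1.046 and 1.00 in TP, and 1.31 and 1.35 in Control, in the same order of groups as Pnlip to Pnliprp1. None of these ratios was tested other than as stated.

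**Figure D4:**
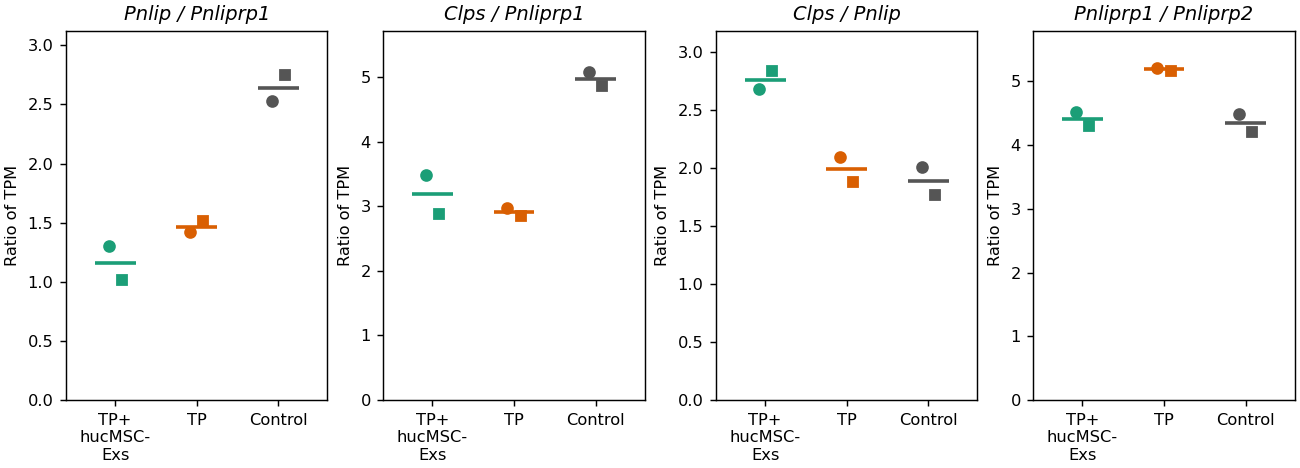
Ratios of TPM between pairs of members in each library, with circles for replicate 1, squares for replicate 2 and bars for the group mean; axes start at 0. Pnlip to Pnliprp1 is below 1.52 in the 4 libraries of injured rats and above 2.5 in both Control libraries, while Clps to Pnlip is highest in the TP+hucMSC-Exs libraries.

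The order of levels differed between groups with these ratios. In Control, Clps and Pla2g1b were highest and overlapped, followed by Pnlip, Cel, Pnliprp1, Pnliprp2 and Clpsl2 with no overlap between neighbours. In TP+hucMSC-Exs libraries Pla2g1b was above Clps in both, and the range of Pnlip overlapped those of Cel and Pnliprp1, which did not overlap each other. Pla2g1b was also above Clps within each TP library, at 39772 against 36347 TPM in replicate 1 and 10572 against 9590 TPM in replicate 2. Pnlip made up 11.3% and 9.07% of the summed TPM of the 7 members after exosomes, 13.9% and 14.8% in TP, and 16.5% and 17.4% in Control. Pla2g1b made up 36.2% and 43.2% after exosomes, 31.9% and 30.8% in TP, and 29.8% and 31.2% in Control. Pnliprp1 took 8.66% and 8.95% after exosomes, 9.80% and 9.80% in TP, and 6.51% and 6.32% in Control. The composition was therefore nearly equal in the 2 TP libraries, in which the set as a whole took 12.5% and 3.44% of TPM.

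**Figure D5:**
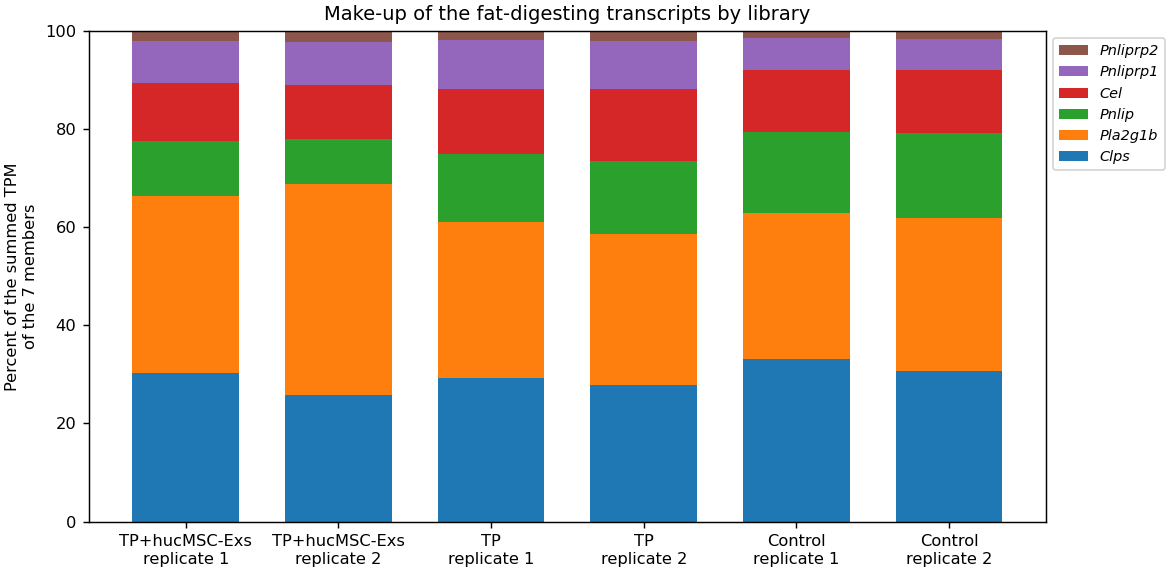
Share of each member in the summed TPM of the 7 members, per library, from 0 to 100%; Clpsl2, at 0.0143% or less, is not drawn. The Pnlip band is narrowest in the TP+hucMSC-Exs libraries (11.3% and 9.07%) and widest in Control (16.5% and 17.4%), and the Pla2g1b band is widest in the TP+hucMSC-Exs libraries (36.2% and 43.2%).

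The genes whose profile over the 6 libraries was nearest to a member were mostly other acinar enzymes, by the root-mean-square difference of centred log2(TPM + 0.5) among 9923 genes. Nearest to Pnlip was Cela1, an elastase, at 0.12, then Hgfac at 0.14. Clps was nearest to Cela2a at 0.073, and Cel to the carboxypeptidase Cpa1 at 0.11 and the chymotrypsin-like Ctrl at 0.11. Pnliprp1 was nearest to Zg16, a zymogen granule protein, at 0.12, Pnliprp2 to the elastase Cela3b at 0.086, and Pla2g1b to the aquaporin Aqp12a at 0.092. Clpsl2 was nearest to Prss3 at 0.25. Ctrb1 stood at rank 69 for Pnlip and at rank 10 for Pla2g1b, its best over the members. These are likenesses over 6 libraries that share group and composition.

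Other lipases and phospholipases were also measured. Of 10 other neutral and acid lipases, 9 were matched, 7 were tested and none passed in any comparison (limma, smallest adjusted p of 0.513); at an unadjusted p below 0.05 there were 2, Lipe and Lipa, both higher in TP than in Control in TPM, as were 3.96% of all genes. Lpl, which acts on lipoproteins, had 9.39 and 9.25 TPM after exosomes, 6.07 and 366 TPM in TP, and 6.65 and 9.96 TPM in Control. Pnpla2, the adipose triglyceride lipase, had 7.73 and 8.97 TPM after exosomes, 2.00 and 295 TPM in TP, and 2.76 and 5.17 TPM in Control. Mgll, monoglyceride lipase, had 9.23 and 9.43 TPM after exosomes, 4.65 and 70.9 TPM in TP, and 3.65 and 6.14 TPM in Control. The high value was TP replicate 2 for each of these, the library in which the adipocyte markers summed to 6576 TPM, and the members were low there.

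Of 13 other phospholipases A2 and their receptor, 13 were matched, 7 were tested and none passed (limma, smallest adjusted p of 0.513). At an unadjusted p below 0.05, Pla2g2a and Pla2g7 were higher in TP than in Control and Pla2g7 was higher in TP+hucMSC-Exs than in Control, in TPM, as were 3.96% and 2.85% of all genes. The secreted enzyme Pla2g2a had 18.6 and 7.68 TPM after exosomes, 6.12 and 446 TPM in TP, and 1.97 and 8.68 TPM in Control. Pla2g12a had 18.0 and 20.4 TPM after exosomes, 12.3 and 10.5 TPM in TP, and 8.43 and 8.51 TPM in Control, with no overlap between the groups. Pla2g15, the lysosomal enzyme, had 2.70 and 4.0 TPM after exosomes, 0.6 and 53.8 TPM in TP, and 0.56 and 1.02 TPM in Control. Pla2g1b was thus by far the main phospholipase A2 transcript of the set in every library, at 10572 TPM or more.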

How the data were processed

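Gene-level TPM of the authors' deposited table, 1 column per library, were used as deposited; the unit is per the file headers. Per the labels' protocols, a SMARTER mRNA kit was used on 1.3 µg of total RNA. The submitters' processing notes name GRCm38 and mm10, mouse builds, while the table's gene IDs are rat Ensembl IDs, so no coordinates were taken from the table; neither aligner nor counter is given in the sources used here. Of 34001 genes, the 11477 with a mean of at least 1 TPM were fitted on log2(TPM + 0.5) with limma 3.58.1 (R 4.3.3), 1 model over 6 libraries with 3 residual degrees of freedom and a variance trend, with Benjamini-Hochberg adjustment over all genes and a threshold of 0.05. Fold changes on this scale understate those of low genes. The fit relative to Ctrb1 subtracts its log2(TPM + 0.5) from every gene (11476 genes). The fit was tested on simulated data only with changes larger than those of the members, so that test does not show how well changes of their size are found. With all 6 libraries limma estimated an infinite prior df: each gene's variance, and hence its p-value, came from the trend over all genes, not from its own spread between 2 rats a group. The members and gene lists were chosen with earlier results of these data known. Genes were named by rule: the 7 members and Ctrb1, list members past the threshold and the 3 highest of each list, and genes among the 3 nearest profiles, of which 1 is not reported here; others named were chosen after their values were seen. Alternatives were other pseudocounts, filters, scalings and denominators, and leaving out each library.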

Additional observations from a re-analysis of the deposited data

How the results depend on the processing

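Precision is limited by 2 rats a group; depth is unknown. No setting of the model turned the direction of Pnlip, Clps, Cel or Clpsl2 for TP+hucMSC-Exs against Control, on either scale; as single denominators, Prss3 and Cela1 did for Clps and Cel. For Pnlip relative to Ctrb1 in that comparison, the log2 change ran from -1.66 to -0.75 over 17 settings and the adjusted p (limma) from 1.70e-08 to 1.00, with 7 settings past the threshold: a pseudocount of 1, a minimum mean of 5 TPM, the 2 groups alone, without TP replicate 1, without TP replicate 2, relative to Pnliprp1, and the 2 groups alone relative to the 12 proteases, of which the last 2 were chosen after seeing the data. The cause was not tested for values below unless the setting itself shows it.

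Counts of genes called moved most. Without 1 library each (a lone library is assumed to vary like the other groups), the TPM counts ran from 1 to 6031 for TP+hucMSC-Exs against Control, 0 to 9537 for treated against TP and 0 to 10706 for TP against Control, and relative to Ctrb1 from 1 to 4326, 0 to 11034 and 1 to 11188. The high counts came without a TP library. With the 2 groups alone the counts were 6056, 1 and 0 in TPM and 4247, 0 and 1 relative to Ctrb1. With no filter they were 0, 0 and 0 in TPM, and relative to Ctrb1 0 for treated against TP and 2 for TP against Control. Median-of-ratios scaling gave 2, 2 and 0, and rescaling without the digestive enzymes 7, 4 and 2. A pseudocount of 0.1 gave 14 for TP against Control in TPM and 0 for treated against TP relative to Ctrb1; a pseudocount of 1 gave 12 for TP+hucMSC-Exs against Control. Relative to Ctrb1, a minimum of 5 TPM gave 11 for TP+hucMSC-Exs against Control, and no variance trend gave 1, 0 and 0. Relative to Prss1 there were 6 for treated against TP and 9 for TP against Control, and relative to the 12 proteases 7 for TP+hucMSC-Exs against TP.

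The median of the members without 1 library each ran from -0.61 to 1.31 for treated against TP, and from -1.89 (without TP replicate 1) to 0.014 (without TP replicate 2) for TP against Control. With median-of-ratios scaling it was -2.21 for treated against Control and -2.67 for TP against Control; rescaling without the enzymes gave -1.89 for TP against Control. Relative to Prss1 it was -0.27 for TP+hucMSC-Exs against Control and 0.35 for TP against Control, and relative to the 12 proteases -0.17 for TP+hucMSC-Exs against Control and -0.19 against TP.

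Members turned direction as follows. Relative to Prss1, TP+hucMSC-Exs against Control was 0.36 for Pnliprp1, 0.34 for Pnliprp2 and 0.27 for Pla2g1b, and TP against Control was 0.072 for Pnlip, 0.15 for Clps and 0.35 for Pla2g1b. Relative to the 12 proteases, also with the 2 groups alone, TP+hucMSC-Exs against Control was 0.45 for Pnliprp1, 0.43 for Pnliprp2 and 0.37 for Pla2g1b, and Pla2g1b was 0.18 against TP and 0.19 for TP against Control. Relative to Pnliprp1, TP+hucMSC-Exs against TP was 0.24 for Pnliprp2, 0.12 for Clps and 0.49 for Pla2g1b, and TP against Control was -0.26 for Pnliprp2 and -0.47 for Cel. Pnlip in TPM, TP+hucMSC-Exs against TP, was 0.16 with median-of-ratios scaling and 0.11 without the enzymes. Without 1 library each, TP+hucMSC-Exs against TP in TPM ran from -1.01 to 0.76 for Pnlip, -0.78 to 0.93 for Cel, -0.61 to 1.31 for Clps, -0.24 to 1.67 for Pla2g1b, -0.70 to 1.16 for Pnliprp1 and -0.46 to 1.39 for Pnliprp2. TP against Control in TPM ran from -1.69 to 0.014 for Cel, -1.89 to 0.018 for Pla2g1b, -1.29 to 0.56 for Pnliprp1 and -1.54 to 0.30 for Pnliprp2, and relative to Ctrb1 from -0.089 to 0.23 for Cel and -0.13 to 0.071 for Pla2g1b.

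The labels number replicates 1 and 2 in each group. Same-numbered libraries deviated together with correlations of 0.080 for TP+hucMSC-Exs and Control, 0.14 for TP+hucMSC-Exs and TP, and 0.28 for TP and Control, so the numbers were not taken to pair the rats. With the replicate block the TPM counts were 35, 22 and 10 and those relative to Ctrb1 were 6, 1 and 4; no member passed.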

Other observations

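Acinar transcription factors drive enzyme genes. Of the 8 listed, all were tested and none passed (limma, smallest adjusted p of 0.594 over the 3 comparisons on either scale; 0 at an unadjusted p below 0.05), and 7 of the 8 were higher without overlap in TP+hucMSC-Exs than in Control, a share near the 86.9% of all genes. In TPM, 8 of the 8 estimates were positive for TP+hucMSC-Exs against TP, and 6 of the 8 were negative for TP against Control. Their medians were 1.15 and -0.083, beside -0.38 and 1.50 over all genes. Of the 8, 6 were higher in TPM without overlap in TP+hucMSC-Exs than in TP, against 5.09% of all genes. Relative to Ctrb1 these directions did not hold. There 8 of the 8 estimates were positive for TP against Control, with a median of 0.83 beside 2.40 over all genes. For TP+hucMSC-Exs against TP 5 were positive and 3 negative, with a median of 0.15 beside -1.37. Without overlap, 3 were higher and 2 lower in that comparison, against 1.97% and 2.52% of all genes. Xbp1, which serves the secretory pathway, had 309 and 399 TPM after exosomes, 134 and 185 TPM in TP, and 141 and 159 TPM in Control. Bhlha15 had 37.1 and 28.9 TPM after exosomes, 36.7 and 12.3 TPM in TP, and 29.8 and 34.7 TPM in Control. Rbpjl, a PTF1 subunit, had 34.9 and 34.9 TPM after exosomes, 38.1 and 15.9 TPM in TP, and 25.5 and 26.1 TPM in Control.

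Of 6 receptors for signals that start enzyme secretion, 5 were matched, 3 were tested and none passed (limma, smallest adjusted p of 0.734; 0 at an unadjusted p below 0.05). Cckar, the cholecystokinin receptor, had 21.8 and 17.8 TPM after exosomes, 22.3 and 9.16 TPM in TP, and 16.3 and 22.0 TPM in Control. Sctr, the secretin receptor, had 16.6 and 17.8 TPM after exosomes, 13.6 and 6.10 TPM in TP, and 8.89 and 9.18 TPM in Control. Chrm3, a muscarinic receptor, had 2.40 and 2.16 TPM after exosomes, 1.47 and 0.42 TPM in TP, and 1.23 and 1.29 TPM in Control.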
